A study of Homo sapiens with 15 samples.

Results

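The Ikaros family comprises 5 zinc-finger transcription factors, encoded by IKZF1 (Ikaros), IKZF2 (Helios), IKZF3 (Aiolos), IKZF4 (Eos) and IKZF5 (Pegasus). These 5 genes, of 33367 genes with a name in the tables, are described here in Reh, an established line of B-lymphoblastic leukaemia in which ETV6 is fused to RUNX1 and the other, normal copy of ETV6 is missing. The family was chosen on IKZF2, whose read counts rose with both introduced forms of ETV6 and with repression of ERG. The values of IKZF2 in those 3 comparisons are therefore descriptions without a test. The other 4 genes were taken by family name.

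RNA was sequenced in 15 libraries, 3 in each of 5 groups. In the ETV6 experiment, a vector switched on by doxycycline (DoxOn) expressed one of 3 proteins with a V5 tag: wild-type ETV6 (the group ETV6_WT), ETV6 with the substitution R399C in its ETS DNA-binding domain (ETV6_R399C), or the fluorescent protein tagBFP as control (tagBFP). These cells received doxycycline at 500 ng/ml for 48 h. In the CRISPR interference experiment, cells with an integrated, inducible dCas9-KRAB, an inactive Cas9 fused to a repressor domain, carried a guide to the ERG promoter (sgERG) or a guide without a target (sgCtrl), were sorted by the fluorescence of the guide vector, and received the same dose for 72 h. All 5 groups thus received doxycycline and share the fusion background, and no group was left without an introduced vector. Reh is a single cell line, and nothing in the labels says whether the replicates were separate cultures, so the p-values below reflect the spread between libraries alone, which may be technical. The 2 experiments differ in vector, sorting and time, and may differ in library handling. These cannot be told apart from any difference in level between tagBFP and sgCtrl.

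Ikaros factors bind DNA through zinc fingers near the amino end of the protein and pair with each other, as homodimers or mixed dimers, through zinc fingers at the carboxyl end. They recruit chromatin-remodelling and histone deacetylase complexes, and they are known both to silence and to activate genes during lymphocyte development. IKZF1 is needed for the B lineage and is often deleted in B-lymphoblastic leukaemia, whereas IKZF2 is best known from T cells, regulatory T cells and early progenitors. ETV6 is a repressor of the ETS family, ERG belongs to the same family and mostly activates, and ETS proteins bind DNA around the core GGAA.

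Library totals ran from 22040338 to 52481351 estimated reads, and mitochondrial genes held 0.956% to 1.419% of reads in the ETV6 experiment and 2.582% to 3.297% in the CRISPR interference experiment. The targeted genes followed the labels. CPM are estimated reads of a gene relative to the reads of all genes that passed the filter on low counts, scaled between libraries. Group means in CPM are given with the SD of n = 3. ETV6 stood at 5.87 ± 0.331 CPM in tagBFP, 485.9 ± 18.1 CPM in ETV6_WT and 373.3 ± 14.8 CPM in ETV6_R399C. ERG stood at 524.7 ± 6.33 CPM in sgCtrl and 105.1 ± 4.12 CPM in sgERG. Reads assigned to ETV6 were also lower in sgERG, at 6.56 ± 0.513 CPM against 13.15 ± 1.25 CPM in sgCtrl (log2 fold change -1.004 ± 0.098, edgeR adjusted p = 6.98e-05), and the part of ETV6 in the sgERG results was not tested. The B-lineage label held: 10 of 11 B-lineage markers exceeded 1 CPM in every group, with VPREB1 listed at 0, and their summed level ran from 6240 to 9300 CPM per library. Of 8 T-cell markers, CD3D and CD2 were at 0 in every group. The only one over 1 CPM was CD247 in the 3 groups of the ETV6 experiment and CD4 in sgERG, while sgCtrl had none. The summed level of the 8 ran from 2.09 to 2.97 CPM per library in the ETV6 experiment, from 0.877 to 2.69 CPM in sgCtrl and from 3.23 to 3.38 CPM in sgERG, so that it was higher in sgERG without overlap. The 3 markers of regulatory T cells summed to at most 1.3 CPM in any library. The 4 natural killer markers, of which KLRD1 and NKG7 exceeded 1 CPM in the ETV6 experiment and NKG7 alone in the other, summed to 7.02 to 7.67 CPM in tagBFP, 8.15 to 8.76 CPM in ETV6_WT and 9.15 to 9.94 CPM in ETV6_R399C, without overlap. They summed to 3.35 to 3.72 CPM in sgCtrl and 3.71 to 4 CPM in sgERG. Of the 5 myeloid markers, CSF1R and ITGAM exceeded 1 CPM in every group, and LYZ did so in ETV6_WT and ETV6_R399C alone. ELANE was at 0 in every group. The 5 summed to 16.5 to 18.5 CPM in tagBFP, 21.3 to 22.5 CPM in ETV6_WT and 17.3 to 18.1 CPM in ETV6_R399C. Their sum was 33.5 to 34.1 CPM in sgCtrl and 30.9 to 35.5 CPM in sgERG. The part of these shifts in the results below was not tested.

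The genes lie on 5 chromosomes of hg38. In GENCODE 29, IKZF1 spans chr7:50304068-50405101 on the plus strand, IKZF2 chr2:212999691-213152427 on the minus strand, IKZF3 chr17:39757715-39864188 on the minus strand, IKZF4 chr12:56007659-56038435 on the plus strand and IKZF5 chr10:122990806-123008817 on the minus strand. Exons of IKZF5 overlap those of PSTK on the opposite strand, a gene with 118 to 208 reads per library, and exons of IKZF1 overlap an antisense gene, AC124014.1, that was not used here. The strand setting of the counting is not given in the sources used here, so reads of such partners cannot be told apart with certainty.

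Because both perturbed factors recognise GGAA, the 250 bases before the annotated RefSeq start sites (GRCh38.p14) of the 2 genes that carry the main changes are shown, 5′ to 3′ on the strand of the gene, with each GGAA or its reverse complement TTCC in capitals. The 2 windows of IKZF2 are given first, followed by the windows of IKZF1 nearest the starts of its 2 most abundant transcripts.
IKZF2, chr2:213152457-213152706, minus strand: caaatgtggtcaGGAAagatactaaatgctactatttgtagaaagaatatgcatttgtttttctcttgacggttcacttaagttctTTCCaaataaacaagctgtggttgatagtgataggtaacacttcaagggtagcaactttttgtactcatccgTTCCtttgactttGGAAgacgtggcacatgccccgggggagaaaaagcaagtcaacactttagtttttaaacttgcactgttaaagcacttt
IKZF2, chr2:213150438-213150687, minus strand: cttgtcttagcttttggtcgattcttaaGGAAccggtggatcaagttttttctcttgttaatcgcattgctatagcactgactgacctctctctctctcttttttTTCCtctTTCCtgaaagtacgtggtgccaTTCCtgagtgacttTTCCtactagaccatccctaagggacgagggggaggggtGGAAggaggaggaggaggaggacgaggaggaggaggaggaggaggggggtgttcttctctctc
IKZF1, chr7:50304466-50304715, plus strand: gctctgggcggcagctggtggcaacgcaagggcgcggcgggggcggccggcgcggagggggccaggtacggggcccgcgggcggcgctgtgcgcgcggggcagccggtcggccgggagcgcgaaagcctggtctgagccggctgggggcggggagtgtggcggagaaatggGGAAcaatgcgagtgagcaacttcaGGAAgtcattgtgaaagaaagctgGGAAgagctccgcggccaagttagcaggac
IKZF1, chr7:50308450-50308699, plus strand: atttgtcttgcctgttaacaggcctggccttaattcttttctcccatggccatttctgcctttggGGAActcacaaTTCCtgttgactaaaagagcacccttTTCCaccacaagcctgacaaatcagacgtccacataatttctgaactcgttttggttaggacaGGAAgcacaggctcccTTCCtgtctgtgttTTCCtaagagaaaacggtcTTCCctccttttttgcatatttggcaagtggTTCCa
Matches to GGAA on either strand numbered 4 and 6 in the windows of IKZF2 and 3 and 8 in those of IKZF1. A match was present in 92.7% of 35116 RefSeq windows of the same length, with a median of 3 matches per window, so the presence of GGAA did not set these windows apart. The longer motif CCGGAAG, searched on both strands and including the core GGAA, was absent from these 4 windows and occurred once among the 10 windows of the family, at the IKZF4 start at chr12:56007254-56007503, against 8.52% of all windows. No window of the family held 2 GGAA units in direct tandem, which 3.06% of all windows did. IKZF3 was not searched. The start of the IKZF2 transcript with the most reads, IKZF2-213, lay 847 bases from the nearest of these RefSeq start sites, so neither IKZF2 window ends at it, and distant elements were not examined.

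IKZF2 (Helios) was the member with the largest differences between groups among the 4 expressed members in each comparison with a control. In the ETV6 experiment its reads gave 63.44, 58.94 and 52.91 CPM in the tagBFP libraries, 150.2, 152.8 and 154.9 CPM in ETV6_WT, and 171.7, 186.8 and 166.5 CPM in ETV6_R399C. Every library with an introduced ETV6 lay above every tagBFP library. In RNA from whole populations, more cells that express a gene and more RNA per cell cannot be told apart. The means were 58.43 ± 5.28, 152.6 ± 2.35 and 175 ± 10.5 CPM (SD, n = 3 each), and the fitted log2 fold changes over tagBFP were 1.38 ± 0.06 (SE), or 2.6-fold, for ETV6_WT and 1.58 ± 0.06, or 2.98-fold, for ETV6_R399C.

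In the CRISPR interference experiment IKZF2 stood at 85.71, 86.98 and 90.47 CPM in the sgCtrl libraries and at 269.5, 276 and 240.7 CPM in sgERG. The groups did not overlap, and the third sgERG library was the lowest of its group. The log2 fold change was 1.58 ± 0.06 (SE), or 2.99-fold, with ERG at 105.1 CPM in place of 524.7 CPM. In the ETV6 experiment ERG stood at 301.8 ± 5.47 CPM in tagBFP, 328.3 ± 7.1 CPM in ETV6_WT (log2 fold change 0.12 ± 0.03, edgeR adjusted p = 0.0032, without overlap) and 302 ± 3.54 CPM in ETV6_R399C (0.00 ± 0.03, edgeR adjusted p = 0.981), and its part in the IKZF2 values was not tested.

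**Figure D1:**
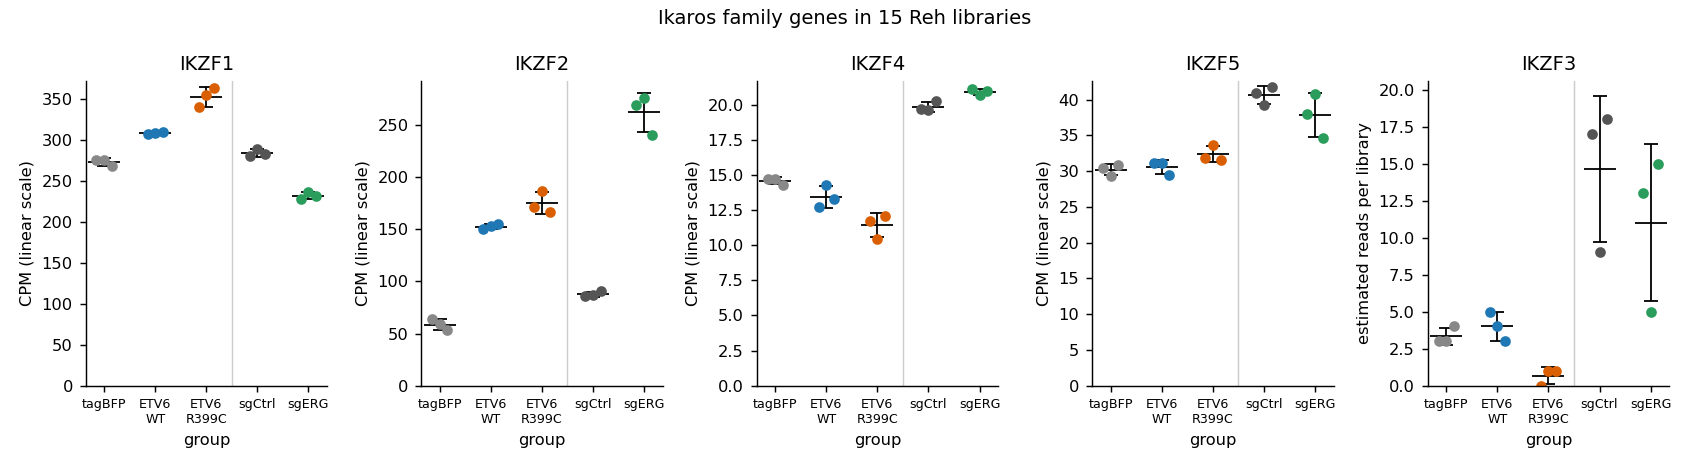
Level of each Ikaros family gene in each of 15 libraries, as CPM on a linear axis for IKZF1, IKZF2, IKZF4 and IKZF5 and as estimated reads per library for IKZF3. Points are libraries, horizontal bars are group means and error bars are SDs (n = 3), and the grey line separates the 2 experiments. IKZF2 lies between 150.2 and 186.8 CPM with either form of ETV6 and between 52.91 and 63.44 CPM with tagBFP.

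The 2 forms of ETV6 were compared with each other directly. The choice of IKZF2 did not use this contrast, but it did use the values of the same libraries, each against tagBFP. The p-values of IKZF2 in this contrast are therefore not independent of the choice. IKZF2 was lower with wild-type ETV6 than with R399C by 0.20 ± 0.06 on the log2 scale (adjusted p = 0.028 by the quasi-likelihood test of edgeR, adjusted over all genes tested), and the 3 ETV6_WT libraries all lay below the 3 ETV6_R399C libraries. In the same libraries ETV6 itself was 0.38 ± 0.04 higher on the log2 scale in ETV6_WT than in ETV6_R399C (edgeR adjusted p = 2.48e-05), and the part of this difference in the IKZF2 values was not tested. The call for IKZF2 rested on single libraries: the adjusted p was 0.117 without ETV6_R399C replicate 2, 0.0636 without ETV6_WT replicate 1, 0.0598 without ETV6_WT replicate 2 and 0.059 without ETV6_WT replicate 3. With an offset for transcript length it was 0.153, and over all 16 alternatives it ran from 0.00271 to 0.153 with the same direction.

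On the TPM scale, which allows for transcript length, the gain of IKZF2 changed its place in the family. The tagBFP libraries held 11.55 ± 1.46 TPM of IKZF2 against 22.21 ± 3.56 TPM of IKZF5, and the libraries of the 2 genes did not overlap. With ETV6_WT, IKZF2 reached 29.58 ± 1.35 TPM and IKZF5 stood at 19.86 ± 4.09 TPM, and with ETV6_R399C the values were 35.84 ± 3.35 and 19.44 ± 3.74 TPM. On this scale the order of the 2 genes was thus reversed in every library with an introduced ETV6. In sgCtrl the 2 genes were not separated, at 20.97 to 22.52 TPM for IKZF2 and 17.42 to 22.64 TPM for IKZF5, whereas sgERG held 63.37 ± 1.49 TPM of IKZF2 and 18.58 ± 1.15 TPM of IKZF5. In CPM, IKZF2 already stood above IKZF5 in tagBFP (58.43 against 30.19 CPM) and in sgCtrl (87.72 against 40.69 CPM), so the order in the controls depended on the scale. The TPM of IKZF5 include short processed transcripts with few reads, such as IKZF5-202, with 289 bases and 7 to 25 reads per tagBFP library. IKZF1 was the highest and IKZF4 the second lowest member in every group, at 84.95 to 114.4 TPM and 4.48 to 8.13 TPM by group mean, with IKZF3 at no more than 0.323 TPM in any library.

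As a share of the summed TPM of the 5 genes, IKZF2 went from 9.27% ± 0.481 in tagBFP to 19.2% ± 1.27 in ETV6_WT and 20.6% ± 1.82 in ETV6_R399C, and from 13.7% ± 0.52 in sgCtrl to 34.9% ± 0.832 in sgERG (SD, n = 3 each). These shares, and those of the other members, restate the IKZF2 difference that selected the family and carry no test. The share of IKZF1 was 68.5% ± 2.34 in tagBFP, 64.7% ± 3.15 in ETV6_WT and 65.7% ± 2.15 in ETV6_R399C. It was 68.7% ± 1.41 in sgCtrl and 50.3% ± 0.391 in sgERG, where IKZF1 itself went from 108.6 ± 2.17 to 91.45 ± 2.16 TPM.

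IKZF1 (Ikaros), the founding member and a tumour suppressor of this leukaemia, moved in opposite directions in the 2 experiments. Its levels were 275.8, 275 and 267.5 CPM in tagBFP, 307.2, 307.9 and 309.6 CPM in ETV6_WT and 339.7, 355 and 363.7 CPM in ETV6_R399C, so that the 3 groups were ordered without overlap. IKZF1 rose 1.13-fold with ETV6_WT (log2 fold change 0.18 ± 0.03, edgeR adjusted p = 0.000541) and 1.29-fold with ETV6_R399C (0.37 ± 0.03, edgeR adjusted p = 2.02e-06). It was lower with the wild-type form than with R399C, with a log2 difference of -0.19 ± 0.03 (edgeR adjusted p = 0.000648). With an offset for transcript length this last difference was -0.13 with an adjusted p of 0.184.

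After ERG repression IKZF1 fell from 280.1, 288.8 and 283 CPM in the sgCtrl libraries to 227.9, 236.6 and 231.2 CPM in sgERG. The log2 fold change was -0.29 ± 0.04, or 1.22-fold lower (edgeR adjusted p = 0.000372), and the groups did not overlap. The response to wild-type ETV6 and the response to ERG repression were compared in 1 model of the 15 libraries. For IKZF1 they differed by 0.47 ± 0.04 on the log2 scale (edgeR adjusted p = 2.52e-07).

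For IKZF2 the same difference was -0.20 ± 0.09. It is built from 2 of the comparisons that selected the gene and is given as a description without a test.

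**Figure D2:**
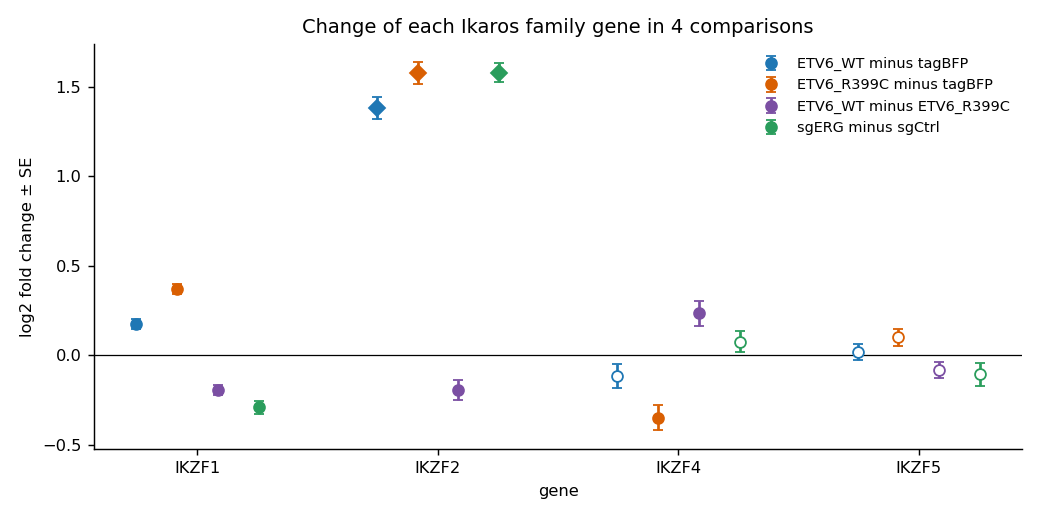
Log2 fold change with its SE for IKZF1, IKZF2, IKZF4 and IKZF5 in 4 comparisons. Filled circles passed the edgeR test at an adjusted p of 0.05, open circles did not, and diamonds are IKZF2 values without a test. IKZF1 lies at 0.18 and 0.37 with the 2 forms of ETV6 and at -0.29 with ERG repression, whereas IKZF2 lies at 1.38 or above in all 3.

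IKZF4 (Eos), which is known as a partner of FOXP3 in regulatory T cells, was a low-level member. It stood at 14.7, 14.75 and 14.3 CPM in tagBFP, 12.74, 14.26 and 13.32 CPM in ETV6_WT and 11.7, 10.47 and 12.11 CPM in ETV6_R399C. All ETV6_R399C libraries lay below all libraries of both other groups. IKZF4 fell by 0.35 ± 0.07 on the log2 scale with ETV6_R399C (edgeR adjusted p = 0.00183), a call that was lost with an offset for transcript length (adjusted p = 0.302). With ETV6_WT the log2 fold change was -0.12 ± 0.07 and did not pass (edgeR adjusted p = 0.217).

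The difference of IKZF4 between the 2 forms, 0.23 ± 0.07 (edgeR adjusted p = 0.0366), was fragile: it missed the threshold in 14 of 16 alternatives. Among these, leaving out any 1 of 8 of the 9 libraries gave an adjusted p between 0.0526 and 0.186. IKZF4 did not pass with ERG repression, at 19.69, 19.62 and 20.27 CPM in sgCtrl and 21.12, 20.7 and 21.02 CPM in sgERG (log2 fold change 0.08 ± 0.06, edgeR adjusted p = 0.416), although the groups did not overlap. The difference between its responses to wild-type ETV6 and to ERG repression was -0.19 ± 0.08 (edgeR adjusted p = 0.0861) and passed only without ETV6_WT replicate 2 (adjusted p = 0.0496) among the alternatives.

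IKZF5 (Pegasus), the most divergent member, did not pass in any of the 5 comparisons. Its group means were 30.19 ± 0.758 CPM in tagBFP, 30.56 ± 0.959 CPM in ETV6_WT, 32.35 ± 1.12 CPM in ETV6_R399C, 40.69 ± 1.27 CPM in sgCtrl and 37.8 ± 3.07 CPM in sgERG (SD, n = 3 each). Its log2 fold changes were 0.02 ± 0.05 with ETV6_WT, 0.10 ± 0.05 with ETV6_R399C and -0.11 ± 0.07 with ERG repression. The sign of both ETV6 differences turned under at least 1 alternative, and the ETV6_R399C value reached an adjusted p of 0.0488 with library totals as the only scaling.

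IKZF3 (Aiolos), a factor of later B-cell stages, was close to absent. The tagBFP libraries held 3, 3 and 4 reads, ETV6_WT 5, 4 and 3, ETV6_R399C 0, 1 and 1, sgCtrl 17, 9 and 18, and sgERG 13, 5 and 15. The gene did not pass the filter on low counts in the ETV6 experiment and is described there by these counts alone. In the CRISPR interference experiment it passed the filter, and the groups overlapped (edgeR adjusted p = 0.982).

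The counts of members that passed stand beside broad responses of all genes. With ETV6_WT, 1 of the 3 members tested apart from IKZF2 passed, beside 36.5% of all 14242 genes tested. With ETV6_R399C, 2 of 3 passed, 1 higher and 1 lower, beside 40.9% of genes. Between the 2 forms, 3 of 4 passed, with IKZF2 counted among them, beside 21.4% of genes. With ERG repression, 1 of 4 passed beside 14.6% of 13464 genes, and in the difference between the 2 responses 1 of the 4 members apart from IKZF2 passed beside 30% of 14969 genes. With so few members these shares describe the family and do not set it apart from other genes.

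The transcript makeup of the genes was described from the same estimates, in which reads that fit several transcripts of a gene are divided between them. CPM of a transcript are relative to the reads of all transcripts that passed the filter on low counts. IKZF2-213 held 83.5% to 90.8% of the reads of IKZF2 in every library, and IKZF2-202 was the only other of 14 IKZF2 transcripts with a group mean of at least 5%. IKZF2-213 went from 56.61, 52.08 and 47.51 CPM in tagBFP to 132.8, 137.3 and 135.9 CPM in ETV6_WT and 159.7, 169.4 and 149.8 CPM in ETV6_R399C. It went from 72.83, 73.42 and 80.47 CPM in sgCtrl to 232, 240.8 and 199.7 CPM in sgERG. Its share stayed within a narrow range while its level changed, from 89.4% in tagBFP to 89% and 89.6% with the 2 forms of ETV6, and from 85.9% in sgCtrl to 85% in sgERG by group mean. IKZF2-202 changed alongside it, with log2 fold changes of 1.54 ± 0.26, 1.54 ± 0.26 and 1.49 ± 0.16 in the 3 comparisons.

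In GENCODE 29, IKZF2-213 has 5 coding exons and 1233 coding bases, against 7 coding exons and 1500 coding bases in IKZF2-202. It is 9405 bases long in the deposited tables and 9350 in GENCODE 29, so the quantified model is another version of the transcript, and its coding part was not checked. Because IKZF2-213 is long, its share of the TPM of IKZF2 was lower than its share of reads, at 45.9% to 50.6% by group mean, and that of the shorter IKZF2-202 was higher, at 17.1% to 20.5%.

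IKZF1 reads were spread over more transcripts, with 5 of 16 at 5% or more in some group. IKZF1-201, with 7 coding exons in GENCODE 29, and IKZF1-210, with 6, were the most abundant. They are 6189 and 3572 bases long in the deposited tables, against 6255 and 3614 in GENCODE 29. The length of IKZF1-203 also differs, at 5499 against 5376 bases. The quantified models are thus other versions of these transcripts, and their coding parts were not checked. IKZF1-201 held 56.7% to 60.4% of the reads in the 9 libraries of the ETV6 experiment and 32.2% to 42.4% in the 6 libraries of the CRISPR interference experiment. IKZF1-203, whose GENCODE 29 version has 2 coding exons, had no reads in the 3 tagBFP libraries, at most 48 reads in the others of the ETV6 experiment, and 267 to 1180 reads in each CRISPR interference library. Vector, sorting, time, depth and any difference in library handling cannot be told apart as the source of these differences between the experiments. Within the CRISPR interference experiment the share of IKZF1-203 was also higher in sgCtrl, at 7.42% to 8.57%, than in sgERG, at 3.37% to 7.1%.

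**Figure D3:**
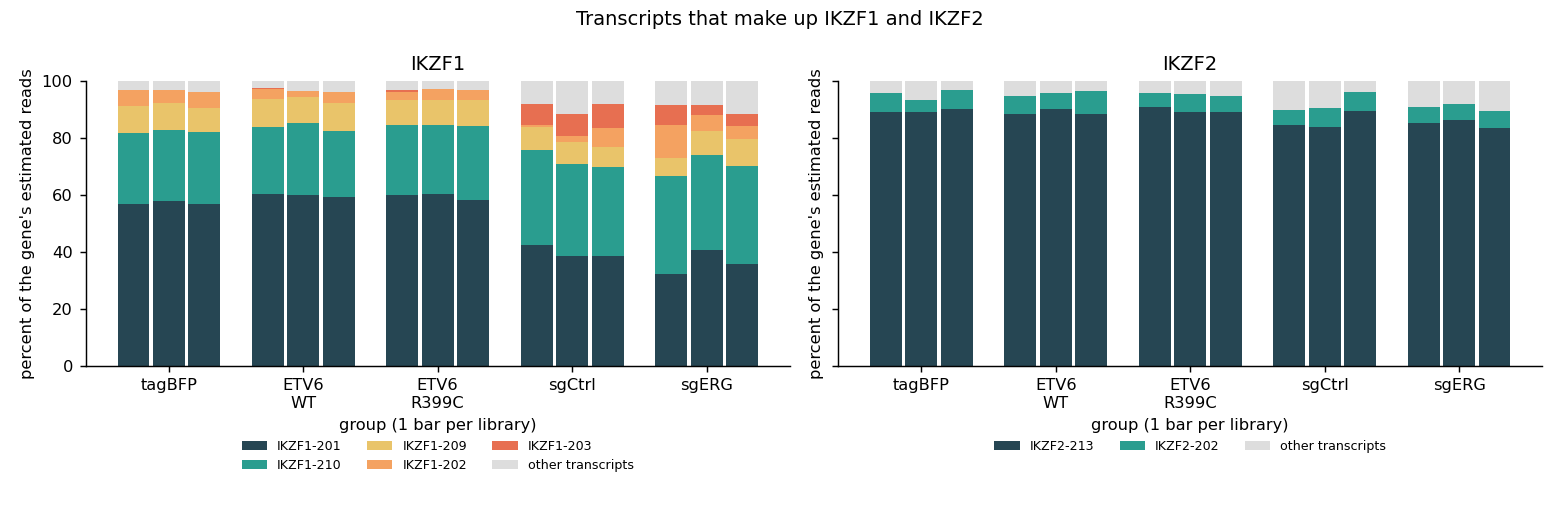
Percent of the estimated reads of IKZF1 (left) and IKZF2 (right) held by each transcript, with 1 stacked bar per library in 5 groups. IKZF2-213 holds 83.5% to 90.8% of IKZF2 reads in every library, while IKZF1-201 holds 56.7% to 60.4% in the ETV6 experiment and 32.2% to 42.4% in the CRISPR interference experiment.

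At the level of single transcripts, the most abundant form of IKZF1 rose with both forms of ETV6. IKZF1-201 rose from 157.3, 158.1 and 151.3 CPM in tagBFP to 185, 183.8 and 182.5 CPM in ETV6_WT (log2 fold change 0.24 ± 0.03, edgeR adjusted p = 0.00213) and to 208.5, 218.5 and 213.4 CPM in ETV6_R399C (0.46 ± 0.03, edgeR adjusted p = 0.000107). It was also lower with the wild-type form than with R399C (-0.22 ± 0.03, edgeR adjusted p = 0.0103). With ETV6_R399C, IKZF1-210 (0.40 ± 0.05, edgeR adjusted p = 0.00465) and IKZF1-209 (0.36 ± 0.07, edgeR adjusted p = 0.0229) rose too.

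In all, 1 of 18 tested transcripts of the members other than IKZF2 passed with ETV6_WT, beside 4.73% of all transcripts tested, and 3 of 18 passed with ETV6_R399C, beside 5.59%. Between the 2 forms 1 of 25 passed, now with IKZF2 included, beside 1.36%. With ERG repression 0 of 21 passed beside 0.913%, by edgeR's quasi-likelihood test, and 4 had an unadjusted p under 0.05. All 4 were transcripts of IKZF1 with lower estimates in sgERG. The log2 fold change was -1.005 ± 0.258 for IKZF1-203 (edgeR adjusted p = 0.215), -0.65 ± 0.22 for IKZF1-216 (edgeR adjusted p = 0.393), -0.42 ± 0.10 for IKZF1-201 (edgeR adjusted p = 0.179) and -0.21 ± 0.04 for IKZF1-210 (edgeR adjusted p = 0.117).

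For the low members, IKZF5-201 held 89.5% to 95.5% of IKZF5 reads. IKZF4 was divided over 5 transcripts with 5% or more in some group, IKZF4-201 holding 41.9% to 83.6% of its reads. The shares of IKZF4 rested on 217 to 986 reads of the gene per library, and none of its transcripts passed in any comparison.

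Genes with a pattern like that of IKZF2 were ranked by Pearson's r over the 15 libraries, each expressed relative to the mean of its own control group, among 9875 protein-coding genes with at least 5 CPM in both experiments. The 10 most alike were CLEC2D, TMEM131L, TFDP2, BACH2, IQSEC1, CD72, NYNRIN, DTX1, PITPNM2 and RASAL1, with r from 0.963 to 0.99, against a median of -0.072 over all genes compared. The points share libraries and group differences, so r is a description without a test. IKZF1, IKZF4 and IKZF5 had r values of 0.171, -0.415 and 0.037 with IKZF2.

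CLEC2D, the ligand of a natural killer cell receptor, came closest to IKZF2 and had log2 fold changes of 1.29 with ETV6_WT, 1.42 with ETV6_R399C and 1.28 with sgERG. BACH2, a transcriptional repressor that acts in B-lineage cells and restrains plasma cell differentiation, had values of 0.73, 1.08 and 0.89. CD72, an inhibitory coreceptor of B cells, had 0.87, 0.93 and 0.94, and DTX1, a regulator of Notch signalling, had 1.05, 1.06 and 1.48. The response of TFDP2, a dimerisation partner of E2F proteins, was similar in pattern and much smaller in size, at 0.23, 0.31 and 0.30. The list depended on the libraries used: 0 of the 10 genes were among the 10 most alike in the 9 libraries of the ETV6 experiment alone, and 3 were in the 6 CRISPR interference libraries alone, although r for these 10 genes was at least 0.94 in both.

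**Figure D4:**
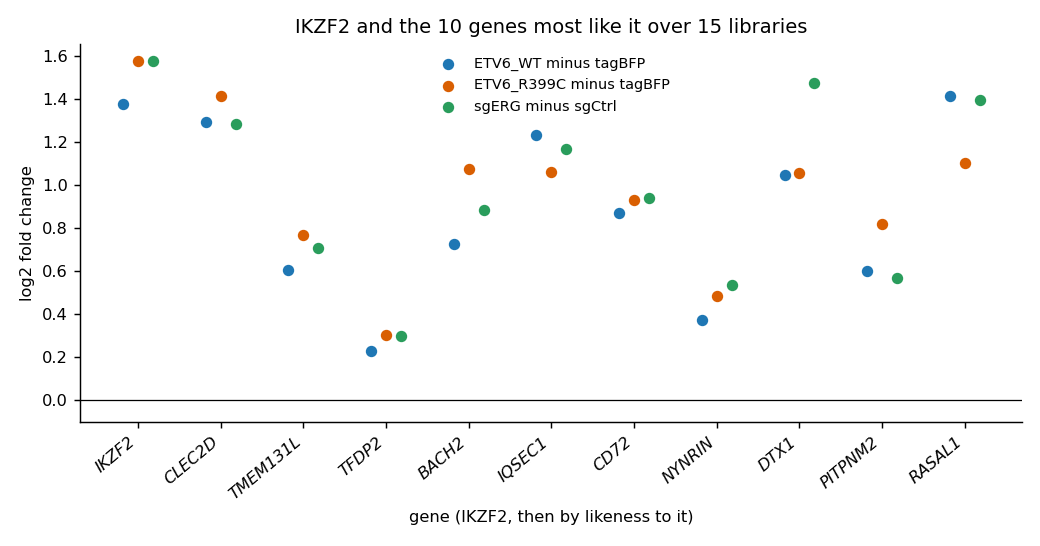
Log2 fold change of IKZF2 and of the 10 genes most like it over 15 libraries, in the 3 comparisons with a control (points, without error bars). All 11 genes lie above 0 in the 3 comparisons, from 0.23 for TFDP2 to 1.58 for IKZF2. The 10 genes were chosen for likeness to IKZF2 in these same libraries, so their shared direction follows from the choice.

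Of the partners through which Ikaros proteins act, 18 genes of the corepressor complexes (NuRD, SIN3, CtBP and SWI/SNF) were tested. With ETV6_WT 4 were higher and 1 was lower, and with ETV6_R399C 4 were higher and 6 lower, with medians of 0.01 and -0.05 on the log2 scale beside -0.001 for all genes. The share called was thus 5 of 18 and 10 of 18, beside 36.5% and 40.9% of all genes (17.6% and 18.8% higher, 18.9% and 22.1% lower). Between the 2 forms 5 passed, each higher with the wild type, with a median of 0.05 beside 0.02, and 21.4% of all genes passed (12.1% higher). With sgERG 3 passed, each higher, with a median of 0.05 beside 0.001, and 14.6% of all genes passed (6.89% higher). CTBP2, a corepressor bound by Ikaros, rose in all 3 comparisons with a control, from 175 ± 4.27 CPM in tagBFP to 206 ± 2.01 with ETV6_WT (edgeR adjusted p = 2.65e-05) and 197 ± 0.735 with ETV6_R399C (edgeR adjusted p = 0.000238). It rose from 144 ± 3.64 CPM in sgCtrl to 186 ± 6.06 CPM in sgERG (edgeR adjusted p = 0.000177). HDAC2, a histone deacetylase of these complexes, fell with both forms of ETV6, from 256 ± 5.32 CPM to 221 ± 2.57 and 225 ± 10.1 CPM (edgeR adjusted p = 0.000393 and 0.00079). CHD4, the helicase of NuRD, rose with ERG repression by 0.15 ± 0.03 on the log2 scale (edgeR adjusted p = 0.015). MTA1, another NuRD subunit, was higher with the wild type than with R399C by 0.15 ± 0.02 (edgeR adjusted p = 0.000945).

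The 5 genes of the cereblon ubiquitin ligase, which degrades IKZF1 and IKZF3 in the presence of lenalidomide-type drugs, were all tested. With ETV6_WT 1 passed and was lower, with ETV6_R399C 1 was higher and 2 were lower, and in each of the other comparisons 1 passed, lower with the wild type than with R399C and lower with sgERG. Of all genes 36.5%, 40.9%, 21.4% and 14.6% passed in the 4 comparisons (17.6%, 18.8%, 12.1% and 6.89% higher, 18.9%, 22.1%, 9.29% and 7.74% lower). The medians of the list lay between -0.07 and 0.04 on the log2 scale, beside -0.001 to 0.02 for all genes. The substrate receptor CRBN was at 50.8 ± 1.9 CPM in tagBFP, 51.8 ± 1.85 with ETV6_WT and 51.7 ± 2.24 with ETV6_R399C, and did not pass (edgeR adjusted p = 0.669 and 0.667). DDB1, its adaptor, fell from 414 ± 6.67 to 381 ± 4.36 and 371 ± 13.8 CPM (edgeR adjusted p = 0.00799 and 0.00131). CUL4B, a scaffold of the ligase, rose with ETV6_R399C (log2 fold change 0.18 ± 0.04, edgeR adjusted p = 0.00511) and fell with ERG repression (-0.20 ± 0.04, edgeR adjusted p = 0.0135).

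Of 21 genes reported as repressed by Ikaros in B-cell precursors, 16 passed the filter on low counts in each experiment. With ETV6_WT 8 were higher and 5 lower, with ETV6_R399C 7 were higher and 5 lower, between the 2 forms 2 were higher and 2 lower, and with sgERG 1 was higher and 2 were lower. Of all genes, 17.6%, 18.8%, 12.1% and 6.89% were called higher and 18.9%, 22.1%, 9.29% and 7.74% lower in these comparisons. The medians were 0.21, 0.18, 0.01 and -0.06 on the log2 scale, beside -0.001, -0.001, 0.02 and 0.001 for all genes. CCND2, a D-type cyclin, rose with ETV6_WT from 3.14 ± 0.407 to 13.4 ± 0.911 CPM (edgeR adjusted p = 6.56e-08) and stood 1.75 ± 0.11 higher on the log2 scale than with R399C (edgeR adjusted p = 1.16e-06). With ETV6_R399C it also rose, to 3.98 ± 0.265 CPM (log2 fold change 0.338 ± 0.118, edgeR adjusted p = 0.0392). MYC, a driver of growth, fell from 481 ± 9.58 CPM to 349 ± 9.5 and 349 ± 7.69 CPM with the 2 forms (edgeR adjusted p = 2.63e-07 and 3.97e-07). HK2, which starts glycolysis, fell from 112 ± 6.04 to 81 ± 3.65 and 87 ± 1.99 CPM (edgeR adjusted p = 8.61e-06 and 5.32e-05). With ETV6_R399C, ITGA5 and CCND3 rose, by 0.445 ± 0.032 and 0.194 ± 0.023 on the log2 scale (edgeR adjusted p = 1.36e-06 and 4.75e-05). Both also rose with ETV6_WT, by 0.252 ± 0.033 and 0.194 ± 0.023 (edgeR adjusted p = 0.000107 and 5.12e-05). ITGA5 was lower with ERG repression (log2 fold change -0.26 ± 0.05, edgeR adjusted p = 0.00802). FLT3, a receptor of early progenitors, fell with ERG repression by 0.74 ± 0.06 (edgeR adjusted p = 1.85e-05), and INSR, the insulin receptor, rose by 0.34 ± 0.04 (edgeR adjusted p = 0.000346). INSR also rose with ETV6_WT and ETV6_R399C, by 0.249 ± 0.039 and 0.222 ± 0.039 (edgeR adjusted p = 0.000417 and 0.000783). For FLT3 the log2 fold change was 0.164 ± 0.043 with ETV6_WT and -0.161 ± 0.044 with ETV6_R399C (edgeR adjusted p = 0.0118 and 0.0122). Members of this list thus moved in both directions in every comparison.

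All 10 genes reported as activated by Ikaros were tested. With ETV6_WT 7 were higher and 1 lower, with ETV6_R399C 7 passed, each higher, between the 2 forms 2 higher and 2 lower, and with sgERG 1 higher and 3 lower. The shares of all genes called were 36.5%, 40.9%, 21.4% and 14.6%. By direction, these were 17.6%, 18.8%, 12.1% and 6.89% higher and 18.9%, 22.1%, 9.29% and 7.74% lower. The medians were 0.33, 0.16, -0.04 and -0.15 on the log2 scale, beside -0.001, -0.001, 0.02 and 0.001 for all genes. CD79B, a signalling chain of the B-cell receptor, rose from 491 ± 6.41 CPM in tagBFP to 787 ± 15 and 758 ± 14.5 CPM with the 2 forms (edgeR adjusted p = 4.75e-09 and 1.49e-08). CDKN1B, a cell-cycle inhibitor, rose in both experiments, by 0.61 ± 0.03 and 0.59 ± 0.03 with the forms of ETV6 (edgeR adjusted p = 7.19e-08 and 1.4e-07) and by 0.20 ± 0.04 with ERG repression (edgeR adjusted p = 0.00914). BCL6, a transcriptional repressor that acts in B-lineage cells, fell with ETV6_WT by 0.41 ± 0.03 (edgeR adjusted p = 3.68e-07) and with ERG repression by 0.51 ± 0.05 (edgeR adjusted p = 3.93e-05), and rose with ETV6_R399C by 0.13 ± 0.03 (edgeR adjusted p = 0.00225). RAG1, of the V(D)J recombinase, fell with ERG repression by 0.33 ± 0.04 (edgeR adjusted p = 0.000161) and rose with ETV6_WT by 0.23 ± 0.03 and with ETV6_R399C by 0.16 ± 0.03 (edgeR adjusted p = 6.75e-05 and 0.000731). Its partner RAG2 rose with the 2 forms by 0.33 ± 0.03 and 0.13 ± 0.03 (edgeR adjusted p = 2.94e-06 and 0.0031), with a log2 fold change of -0.13 ± 0.04 with ERG repression (edgeR adjusted p = 0.0603). RAG1 and CD79B are also among the B-lineage markers, whose summed level ran from 6240 to 6300 CPM in tagBFP and from 7690 to 8390 CPM with the forms of ETV6. It ran from 9180 to 9300 CPM in sgCtrl and from 8190 to 8400 CPM in sgERG, and the part of these shifts in the counts was not tested.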

How the data were processed

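RNA was sequenced from 15 Reh libraries in 5 groups of 3. Per the file headers, the deposited table of each library holds an estimated count of reads, a TPM value, a length and an effective length for each of 167268 transcripts, and the submitters' processing notes name Salmon 0.11.3 and the build hg38. The deposited estimated counts were not scaled between libraries, and the deposited TPM values sum to the same total in each. The sources used here do not state the strand setting, the bias options or any read filter. Per the labels' protocols the kit keeps the strand.

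Transcripts were matched to GENCODE 29 by identifier without version (90.3% matched; the rest held 6.672% to 7.555% of reads and were left out), summed per gene and rounded. Tests used edgeR 4.0.16 in R 4.3.3 (quasi-likelihood, TMM, filterByExpr, Benjamini-Hochberg over all genes or transcripts tested, threshold 0.05), in fits of 9, 6 or, for the difference of responses, 15 libraries, after a check on simulated data. SE is the log2 fold change divided by the root of F. DESeq2 1.42.0, other scalings, filters, a length offset, a replicate block and left-out libraries were alternatives. Replicates of a group differed by more than counting noise (chi-square per degree of freedom 2.79 to 13.99), so each library counts once. Variation between replicates (edgeR's common BCV) was 4.95% in the ETV6 experiment and 6.24% in the CRISPR interference experiment.

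Named genes are the 5 members, ETV6 and ERG as checks, up to 4 genes of the smallest p from each list and comparison, and the 10 protein-coding genes most like IKZF2. CRBN, BCL6, RAG1, RAG2, CCND2, CCND3, ITGA5, FLT3 and INSR in some comparisons and the overlapping genes PSTK and AC124014.1 fall outside this rule. The members and lists were chosen with earlier results of these data known. Sequences come from RefSeq (GRCh38.p14), which matched 4 of 5 members.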

Additional observations from a re-analysis of the deposited data

Results flagged for a closer look

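IKZF1 responded in opposite directions in the 2 experiments. The difference between its response to wild-type ETV6 and its response to ERG repression was 0.47 ± 0.04 on the log2 scale (edgeR adjusted p = 2.52e-07, beside 30% of all genes tested that passed). It was higher in 3 of 3 ETV6_WT libraries than in any tagBFP library and lower in 3 of 3 sgERG libraries than in any sgCtrl library. Over the 18 alternatives the difference ran from 0.44 to 0.49. The experiments also differ in vector, sorting, time and depth, and may differ in library handling. The part of these in the difference was not tested.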

How the results depend on the processing

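Among the 22 values of a member in a comparison, those of IKZF2 against a control moved by less than the spread between replicates in every alternative, between 1.30 and 1.43 with ETV6_WT, 1.52 and 1.64 with ETV6_R399C and 1.53 and 1.64 with sgERG. No call of a member was reversed. IKZF1 kept its direction throughout and lost 1 call, between the 2 forms of ETV6, with the length offset. An offset for transcript length lowered the count of genes called to 2916 with ETV6_WT, 3428 with ETV6_R399C, 1237 between the 2 forms and 2649 in the difference of responses; members called fell to 1 with ETV6_R399C and to 0 between the 2 forms, where edgeR gave 2 members an unadjusted p under 0.05 and DESeq2 called 2. The cause was not tested. IKZF2 carries no test in the difference of responses and is left out of the counts of members there. Leaving out single libraries gave 1 to 3 members between the 2 forms. Apart from IKZF2 it gave 1 to 2 in the difference of responses, where IKZF4 passed beside IKZF1 only without ETV6_WT replicate 2. It gave 2008 to 3236 genes between the 2 forms, lowest without ETV6_R399C replicate 1 (2008) and ETV6_WT replicate 2 (2010), and 1160 to 2302 genes with ERG repression, lowest without sgCtrl replicate 1 (1160) and replicate 3 (1162). Same-numbered libraries showed no shared deviation (r from -0.251 to 0.214 and from -0.196 to 0.05). Differently numbered libraries ran from -0.304 to 0.463 and from -0.1 to 0.211. With 3 replicates per group this cannot show that the samples were unpaired, and the main fits used no pairing. With a replicate block, members called numbered 1 with ETV6_WT, 2 with ETV6_R399C, 2 between the 2 forms, 1 with sgERG and 1 in the difference, and genes called 5086, 5656, 2973, 1536 and 4144. Member transcripts called under the block numbered 1, 2, 1 and 0. Read and TPM shares of a transcript differed by more than the spread between replicates in 47 of 65 cases. Depth limits IKZF3, at 0 to 18 reads per library, and the transcripts of IKZF4.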
